A study of Mus musculus with 12 samples.

Results

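The genes described here are 9 transcription factors of upper-layer and callosal neurons, the excitatory cells of the outer cerebral cortex, many of which send an axon through the corpus callosum to the other hemisphere. They were chosen by symbol as Cux1, Cux2, Pou3f1, Pou3f2, Pou3f3, Bhlhe22, Mef2c, Rorb and Lhx2, and make up 9 of the 51912 genes listed for each library. Of the 9, 8 passed the filter on low counts that left 10678 genes to be tested, and Pou3f3 did not. RNA was measured in mouse cerebral cortex, taken by micro-dissection at embryonic day 15.5, by ClickSeq, a random-primed RNA-seq method with molecular tags, with 1 library for each of 12 embryos. The 6 mutants were conditional for Arid1a, which encodes a BAF complex subunit that binds DNA, under Emx1-Cre, and the 6 controls are given by the labels as controls, with no allele named. BAF complexes move nucleosomes along DNA. Emx1-Cre acts in dorsal forebrain progenitors, and the deletion passes to the excitatory neurons and glia they make, so interneurons, blood vessels, microglia and any striatal tissue in a dissection keep Arid1a in the mutants too. Litter 2 held 4 of the mutants with 2 controls, while litter 1 held 2 of the mutants with 4 controls. Males were 1 of the mutants and 4 of the controls, and females were 5 of the mutants and 2 of the controls. Genotype therefore overlapped in part with litter and with sex, and all 12 libraries carried the same batch label.

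Cortical neurons are born from the inside out, deep layers before upper layers, and at this stage the neurons of the upper layers are being made and are still migrating. Homeodomain, POU, basic helix-loop-helix, MADS-box and nuclear receptor proteins then act in succession to set the layer, the area and the connections of each cell. Several of the 9 genes are also used elsewhere: Lhx2 in cortical progenitors, Pou3f2 and Pou3f3 in progenitors and migrating neurons, and Mef2c in blood vessels and microglia as well as in neurons.

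Counts on genes ran from 643197 to 3525121 in the mutants and from 1476478 to 2815042 in the controls, with 15193 to 17868 genes detected per library. Levels are given as CPM, counts scaled to library size by the trimmed mean of M values (TMM). A difference is a log2 fold change from 1 edgeR quasi-likelihood fit over all 10678 genes, in which litter, sex and genotype were terms. A gene was called when its Benjamini-Hochberg adjusted p was under 0.05. Arid1a itself ran from 396 to 525 CPM in mutants, against 464 to 575 CPM in controls, with overlapping groups, and differed by -0.30 (SE 0.0958, edgeR adjusted p = 0.277). The labels do not name the deleted exons, so a count over the whole gene is a weak check of the genotype. All 8 markers of cortical projection neurons, Emx1 among them, were detected. In these whole-tissue libraries fewer cells of a type and less RNA per cell cannot be told apart.

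The POU genes come first because the count for 1 of them cannot be read as a level. Pou3f1, Pou3f2 and Pou3f3 are intronless transcription factors of the same class: in mice lacking both Pou3f2 and Pou3f3, upper-layer neurons are made in smaller numbers and migrate poorly, and Pou3f1 is best known for timing myelination by Schwann cells. Reads could be split between such relatives, so their coding sequences were compared in the GENCODE M21 annotation of build GRCm38. The stretch of 120 bases in which the 3 are most alike is printed below, 5′ to 3′ on the coding strand, with capitals at the 19 positions where not all 3 genes have the same base. It lies at chr4:124658511-124658630 on the plus strand for Pou3f1, at chr4:22487151-22487270 on the minus strand for Pou3f2 and at chr1:42698148-42698267 on the plus strand for Pou3f3.
Pou3f1: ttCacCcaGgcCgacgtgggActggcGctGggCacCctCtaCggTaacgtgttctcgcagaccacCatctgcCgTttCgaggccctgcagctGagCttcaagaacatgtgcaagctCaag
Pou3f2: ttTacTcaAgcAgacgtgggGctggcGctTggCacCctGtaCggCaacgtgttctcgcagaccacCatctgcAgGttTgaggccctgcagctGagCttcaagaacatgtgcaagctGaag
Pou3f3: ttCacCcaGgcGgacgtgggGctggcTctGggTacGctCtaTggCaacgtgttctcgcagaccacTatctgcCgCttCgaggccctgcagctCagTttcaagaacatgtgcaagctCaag
The 3 genes share 101 of the 120 bases. Pou3f1 and Pou3f2 match at 108 of them (90%), Pou3f1 and Pou3f3 at 109 (90.8%) and Pou3f2 and Pou3f3 at 103 (85.8%). The longest unbroken run shared over the coding sequences was 38 bases for Pou3f1 and Pou3f2, 29 bases for Pou3f1 and Pou3f3 and 23 bases for Pou3f2 and Pou3f3. Of all 50-base stretches in their coding transcripts, none of the 3800 in Pou3f1 occurred in a transcript of another gene, against 22 of 5538 (0.397%) in Pou3f2 and 7 of 7360 (0.0951%) in Pou3f3. No POU gene was among the genes that shared those stretches. At that length the 3 genes could thus be told apart from each other throughout, and from other genes over nearly all of their sequence. Of the other 6 genes, Rorb had 3 such shared stretches of 9454 (0.0317%) and the rest had none.

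Pou3f3 was listed at 0 in all 12 libraries. The gene, a single exon of 7.409 kb at chr1:42695768-42703176, lies wholly inside AC122898.1, a longer noncoding gene annotated on the same plus strand at chr1:42694925-42744791. AC122898.1 held 956 counts over the 12 libraries and averaged 40.9 ± 7.90 CPM in mutants, against 42.3 ± 4.49 CPM in the controls (SD, n = 6 each). The 2 sets overlapped, with a log2 fold change of -0.053 (SE 0.139, edgeR adjusted p = 1.00). The overlap rule of the counting is not given, so whether AC122898.1 took in reads from Pou3f3 is not known. Its level is therefore no measure of Pou3f3. Counts of 0 were also the rule for other genes that lie within a longer one on the same strand. Of 2004 genes inside an intron of a well-counted gene on the same strand, with a span over 50 kb and over 2000 counts for the outer gene, 1997 (99.7%) were at 0 in all libraries, and so were 63 of the 63 that code for protein. On the opposite strand 926 of 1347 (68.7%) were at 0, and 34 of 117 that code for protein. Sox2, which lies in the same way within Sox2ot, was also listed at 0. A count of 0 for Pou3f3 therefore does not show an absence of its RNA, and no level or difference is given for it.

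**Figure D1:**
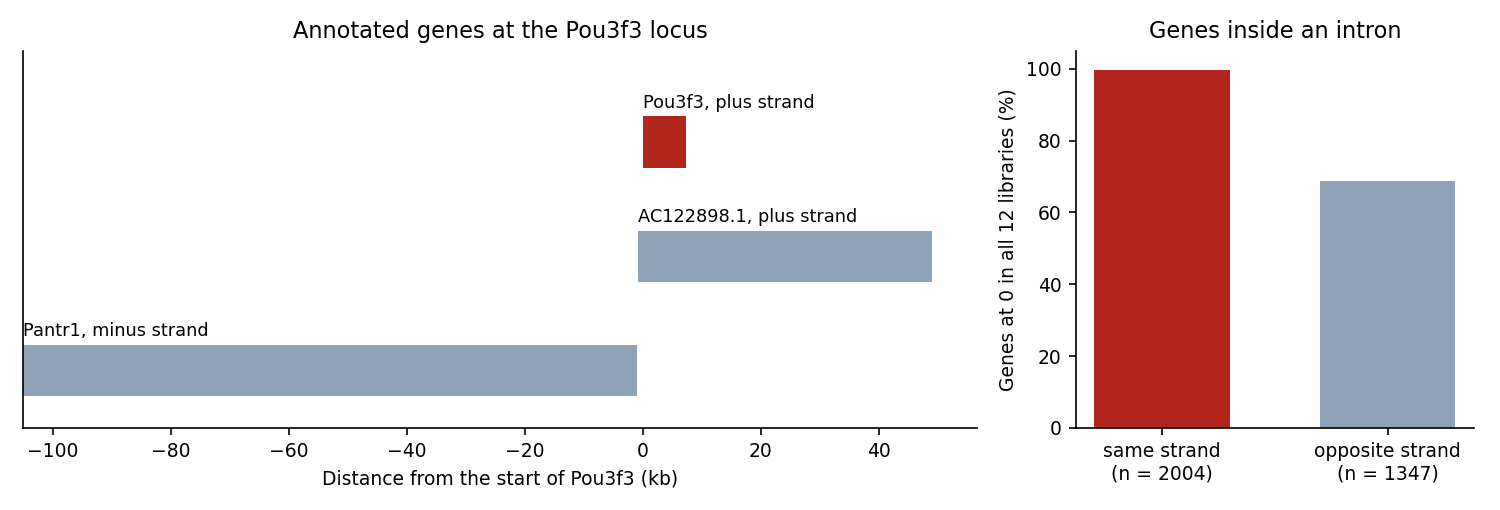
Left, annotated genes at the Pou3f3 locus by distance from the Pou3f3 start in kb, with Pou3f3 wholly inside AC122898.1 on the same strand. Right, the share of genes lying in an intron of a longer, well-counted gene that were at 0 in all 12 libraries, 99.7% of 2004 on the same strand and 68.7% of 1347 on the opposite strand.

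A neighbour on the other side, the long noncoding RNA Pantr1, is transcribed from the minus strand and starts 0.926 kb before Pou3f3. Pantr1 averaged 248 ± 38.9 CPM in mutants, against 321 ± 52.2 CPM in the controls (SD, n = 6 each), for a log2 fold change of -0.39 (SE 0.126, edgeR adjusted p = 0.276). It was not called, and it is no measure of Pou3f3.

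The other 8 genes are listed by position in build GRCm38. Cux1 (chr5:136248135-136567490, minus strand, 319.356 kb) and Cux2 (chr5:121856366-122050102, minus strand, 193.737 kb) lie on the same chromosome and have many introns. Pou3f1 (chr4:124656807-124660655, plus strand), Pou3f2 (chr4:22482780-22488366, minus strand) and Bhlhe22 (chr3:18054174-18057517, plus strand) have 1 exon each. Mef2c (chr13:83504034-83667080, plus strand), Rorb (chr19:18930605-19111196, minus strand) and Lhx2 (chr2:38339281-38369733, plus strand) span 163.047, 180.592 and 30.453 kb. Pou3f1 is overlapped in part by Gm2164 on the opposite strand, and counts of genes that lie within another, at 0 in 63 of 63 coding genes on the same strand and in 34 of 117 on the opposite strand, show that the counting kept the strands apart. Gm2164 averaged 92.0 ± 10.4 CPM in mutants, against 97.2 ± 27.9 CPM in the controls (SD, n = 6 each).

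Levels can be compared between genes only per length. The zeros of nearly all genes that lie in an intron on the same strand show that reads in introns belonged to the outer gene. The counts of genes with introns thus mix reads from exons and introns in shares that are not known. Neither the span of the whole gene nor its exonic length is therefore sure to be the right length, and both orders are given. Per kb of the whole gene span, the control means were ordered as Pou3f2 with 34.0 CPM per kb, Bhlhe22 with 20.8, Pou3f1 with 6.39, Lhx2 with 5.84, Mef2c with 3.63, Cux2 with 2.29, Cux1 with 2.09 and Rorb with 1.03. Here Bhlhe22 (10.6 to 30.9 CPM per kb in controls) and Pou3f1 (3.46 to 8.83 CPM per kb) did not overlap, nor did Cux1 (1.70 to 2.51 CPM per kb) and Rorb (0.437 to 1.47 CPM per kb), while the other neighbours in this order did. The order depended on the length: per kb of exonic sequence alone, over which reads in introns are not spread, Cux2 had 44.0 CPM per kb, Lhx2 40.5, Mef2c 37.7, Cux1 33.3 and Rorb 16.8. The 3 intronless genes have the same value on both lengths, so here the means of Cux2, Lhx2 and Mef2c stood above that of Pou3f2. The mean of Cux1 stood above those of Bhlhe22 and Pou3f1 here. All neighbours in this exonic order overlapped in the controls. Even Cux2, the first, at 27.3 to 56.5 CPM per kb, overlapped with Pou3f2 at 22.2 to 47.9 CPM per kb. Pou3f1 was the lowest of the 3 intronless genes.

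The genes also differed in how much they varied over the 12 libraries. The coefficient of variation was 11.7% for Cux1, 26.3% for Cux2, 27.7% for Pou3f2, 31.5% for Rorb, 33.9% for Mef2c, 38.5% for Lhx2, 38.7% for Pou3f1 and 43.8% for Bhlhe22. Pou3f1 rested on the fewest counts, 517 in all, and its lowest library, mutant 4, held 9 of them, or 11.6 CPM with an exact Poisson 95% interval of 5.29 to 21.9 CPM that covers counting error only. Bhlhe22 rested on 1365 counts, and its lowest count, 31 in mutant 4, gave 39.8 CPM with an interval of 27.1 to 56.5 CPM.

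Mutants were compared with controls to ask whether these genes depend on Arid1a in the embryonic cortex. None of the 8 tested genes was called, against 23 of 10678 genes (0.215%) over the whole table, 17 lower (0.159%) and 6 higher (0.0562%) in mutants, and none had an unadjusted edgeR p under 0.05, against 937 genes (8.78%). DESeq2 and limma-voom called none of the 8 either. In none of the 8 did the 6 mutants and the 6 controls fail to overlap, as they did in 135 genes (1.26%). The log2 fold changes of the 8 ran from -0.75 to 0.21 with a median of -0.15, and 7 were negative (6 with library totals in place of TMM, where Mef2c was 0.017), against a median of -0.0009 over all genes tested. This lean to the negative side did not hold with every library left out. Without control 6, the log2 fold changes of Cux1, Pou3f1, Pou3f2, Mef2c and Rorb were 0.095, 0.44, 0.0049, 0.16 and 0.20, without control 1 that of Bhlhe22 was 0.0049, and without mutant 1 that of Mef2c was 0.025. Controls 1 and 6 were the only female controls, so without either of them 1 female control was left. The sex term also drew on the mutants of litter 2, with 3 females and 1 male. The cause of these turns of sign was not tested. With neither litter nor sex in the fit, which ignores their overlap with genotype, the 7 stayed negative, from -0.56 for Bhlhe22 to -0.08 for Cux1.

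**Figure D2:**
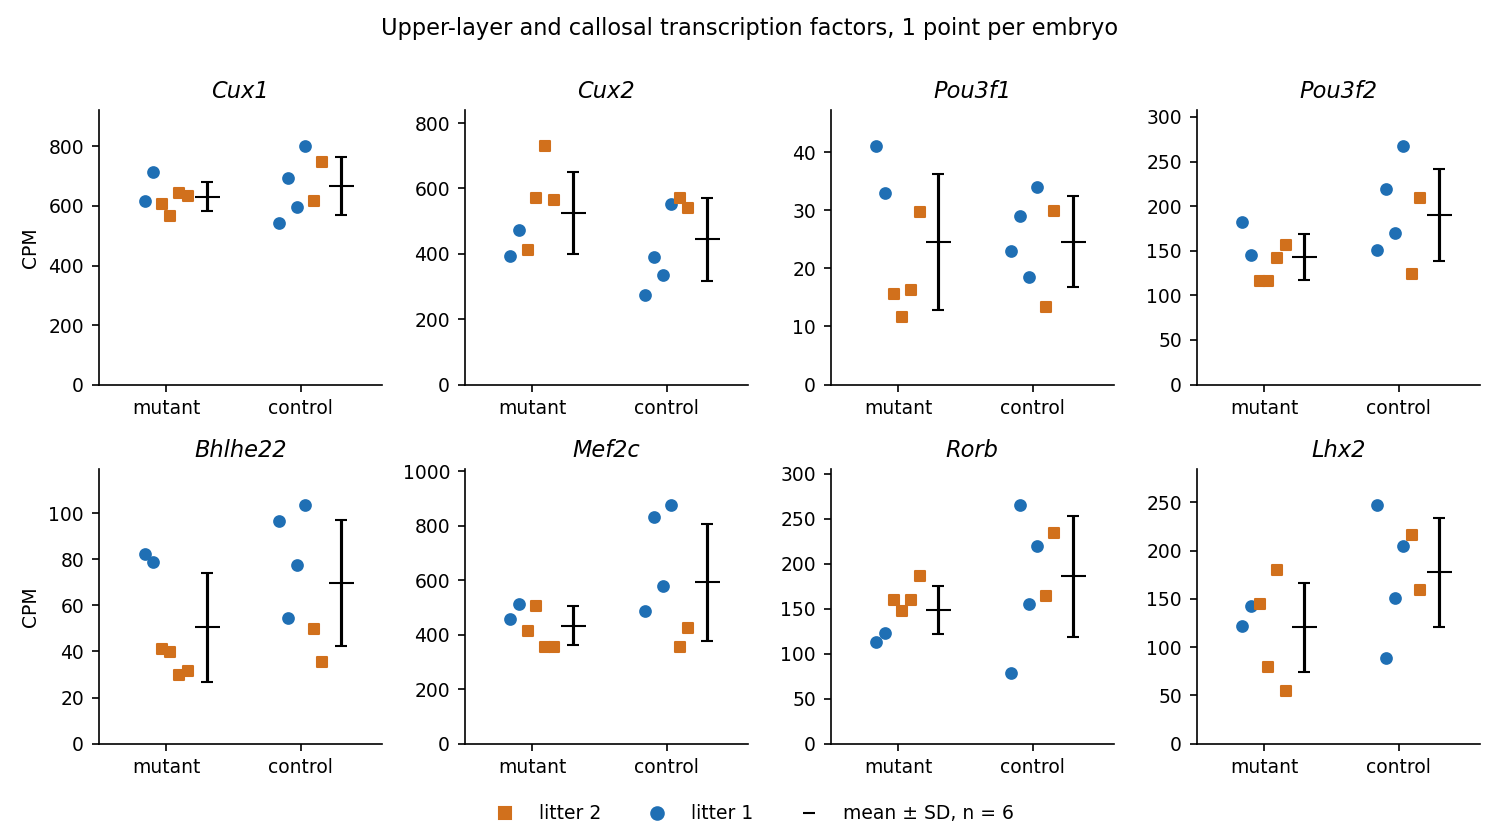
CPM of the 8 measured genes, 1 point per embryo, with 6 mutants left and 6 controls right, litter 2 as squares and litter 1 as circles, and bars for mean ± SD. Mutants and controls overlapped for every gene, and for Bhlhe22 all litter 2 embryos lay between 30.0 and 49.8 CPM, under all litter 1 embryos at 54.4 to 103 CPM.

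Lhx2, a LIM-homeodomain selector gene that sets cortical against hem fate and later acts in upper-layer neurons, had the largest difference. It stood at 122, 143, 144, 79.6, 179 and 54.8 CPM in mutants 1 to 6, against 247, 89.0, 151, 204, 216 and 159 CPM in controls 1 to 6. Mutants 4 and 6 lay below every control and control 2 lay below 4 of the mutants, so the groups overlapped. The log2 fold change was -0.75 (SE 0.392, 95% interval -1.64 to 0.15, edgeR adjusted p = 0.668). Within litter 2 alone it was -0.66, and within litter 1 alone, where control 1 is the sole female control and alone informs genotype, it was -0.90, neither passing the test.

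Lhx2 also had the largest correlation of the 8 genes with the level of striatal markers over the 12 libraries, though it did not pass the correction. The summed level of 11 markers of striatum and lateral ganglionic eminence ran from 82.2 to 1139 CPM in mutants (486 ± 397, SD, n = 6) and from 52.3 to 1024 CPM in controls (344 ± 385, SD, n = 6), with no marker at 0. The groups overlapped in this sum, which takes no account of litter or sex (two-sided exact permutation p = 0.515, adjusted over 11 marker lists 0.810). In the fit with litter and sex the 5 of these markers that were tested were all positive for mutant against control, at 1.11 to 1.72 with a median of 1.27, and none was called. The 15 tested interneuron markers were all positive as well, at 0.049 to 0.90 with a median of 0.42, none called, and their part in the Lhx2 difference was not tested. Mutant 6 at 1139 CPM and control 2 at 1024 CPM, the highest in striatal markers in their groups, were also the lowest in Lhx2. Over the 12 libraries log2 Lhx2 and log2 striatal level had Pearson's r of -0.59 (permutation p = 0.0429, adjusted over the 8 genes 0.343) and Spearman's rho of -0.66 (permutation p = 0.0236, adjusted 0.189). Within litter 2 r was -0.39 and within litter 1 it was -0.90, with 6 libraries each. Without the 2 libraries farthest from the median striatal level r was -0.28, so the relation rested on those libraries, and it did not pass the correction. The other 7 genes had r between -0.32 and 0.26 over the 12 libraries, with permutation p adjusted from 0.904. Within single litters some were larger. Bhlhe22 had r of -0.83 within litter 1 and -0.42 within litter 2. Mef2c had -0.076 within litter 1 and -0.58 within litter 2, and Pou3f1 had 0.013 and 0.57. With the striatal level as a further term in the fit, the Lhx2 difference between mutants and controls was -0.51 (edgeR adjusted p = 0.788).

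Pou3f2 was the next largest on the negative side. It stood at 182, 146, 116, 116, 142 and 156 CPM in mutants 1 to 6, against 150, 220, 170, 267, 124 and 209 CPM in controls 1 to 6. All 6 mutants lay below the control mean of 190 CPM, yet controls 1, 3 and 5 lay within the mutant range. The log2 fold change was -0.36 (SE 0.211, 95% interval -0.82 to 0.11, edgeR adjusted p = 0.710). Pou3f1 averaged 24.5 ± 11.7 CPM in mutants, against 24.6 ± 7.79 CPM in the controls (SD, n = 6 each), and its wide interval of -0.78 to 0.49 around -0.15 (SE 0.298, edgeR adjusted p = 0.966) goes with those few counts.

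The paralogous cut-homeodomain genes Cux1 and Cux2 mark upper-layer neurons and shape their dendrites and spines. Cux1 averaged 631 ± 48.5 CPM in mutants, against 667 ± 97.9 CPM in the controls (SD, n = 6 each), for a log2 fold change of -0.082 (SE 0.122, 95% interval -0.34 to 0.17, edgeR adjusted p = 0.932), the narrowest interval of the 8. Cux2 stood at 392, 474, 411, 571, 730 and 566 CPM in mutants 1 to 6, against 275, 391, 334, 553, 570 and 540 CPM in controls 1 to 6. Mutants 4 and 5 lay above every control and controls 1, 2 and 3 lay below every mutant, and the rest overlapped. It was the 1 gene with a positive value, 0.21 (SE 0.205, 95% interval -0.24 to 0.65, edgeR adjusted p = 0.861).

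Mef2c, a MADS-box factor that acts in neuron layering and in setting synapse number, averaged 434 ± 70.7 CPM in mutants, against 592 ± 216 CPM in the controls (SD, n = 6 each). Controls 2, 3 and 4, at 831, 579 and 876 CPM, lay above the mutants' highest value of 513 CPM, and the other 3 controls overlapped with the mutants. With litter and sex in the fit the log2 fold change was -0.033 (SE 0.157, 95% interval -0.37 to 0.30, edgeR adjusted p = 1.00), and with neither term it was -0.45 (adjusted p = 0.432). Blood vessels and microglia, which also express Mef2c, had summed markers of 80.3 ± 12.1 CPM in mutants, against 81.7 ± 11.0 CPM in the controls for endothelial cells, and 16.2 ± 4.47 CPM in mutants, against 16.3 ± 3.28 CPM in the controls for microglia (SD, n = 6 each, exact permutation p = 0.818 and 0.974). These sums take no account of litter or sex. Of the 9 markers in each list, 5 for endothelial cells and 0 for microglia passed the filter on low counts. The part of these cells in the Mef2c level was not tested.

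Rorb, a nuclear receptor of the layer that receives thalamic axons, ran from 112 to 186 CPM in mutants with a median of 154, against 79.0 to 265 CPM in controls with a median of 192. The spread of the controls took in every mutant, and the log2 fold change was -0.27 (SE 0.315, 95% interval -0.98 to 0.45, edgeR adjusted p = 0.908).

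Bhlhe22, a basic helix-loop-helix repressor of newly made projection neurons that sets area identity and axon targeting, averaged 50.5 ± 23.6 CPM in mutants, against 69.5 ± 27.3 CPM in the controls (SD, n = 6 each). The fitted difference depended on whether litter was in the fit. With litter and sex it was -0.15 (SE 0.197, 95% interval -0.57 to 0.27, edgeR adjusted p = 0.916), without the litter term it was -0.55 (adjusted p = 0.813), and with neither term it was -0.56 (adjusted p = 0.563).

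**Figure D3:**
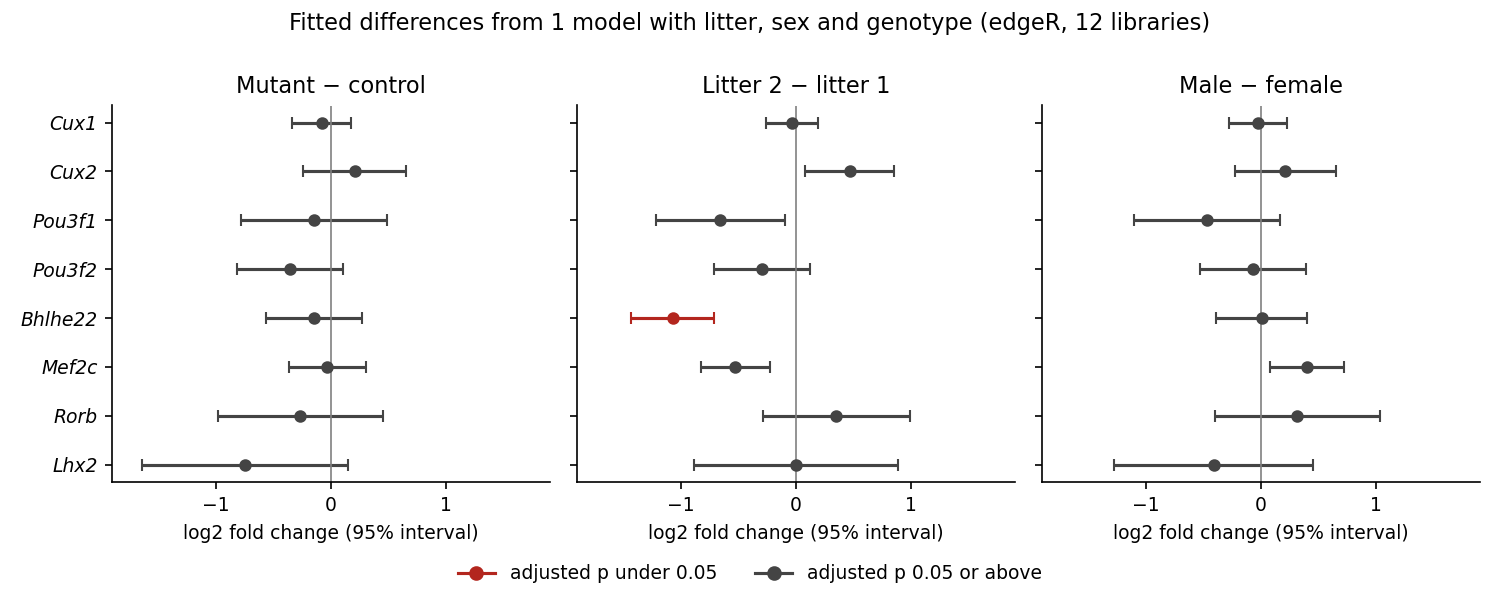
Fitted log2 fold changes of the 8 measured genes with 95% intervals for mutant minus control, litter 2 minus litter 1 and male minus female, from 1 edgeR fit over 12 libraries. Bhlhe22 at -1.07 between litters is the 1 value with an adjusted p under 0.05.

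The litters were compared in the same fit because the 2 genotypes were spread unevenly over them. Bhlhe22 was lower in litter 2. It stood at 41.0, 39.8, 30.0 and 31.6 CPM in the 4 mutants and at 49.8 and 35.4 CPM in the 2 controls of litter 2, against 82.0 and 78.7 CPM in the 2 mutants and 96.6, 54.4, 77.6 and 103 CPM in the 4 controls of litter 1. All 6 embryos of litter 2 lay below all 6 of litter 1, in each genotype as well as over both. A gap between litters, in either direction, was present in 177 of 10678 genes (1.66%) over all 12 libraries. Within each genotype taken alone the litters did not overlap in 583 genes (5.46%), a count that takes in genes with opposite directions in mutants and controls. The log2 fold change was -1.07 (SE 0.170, 95% interval -1.43 to -0.71, edgeR adjusted p = 0.00602), a level in litter 2 of 0.476 times that in litter 1.

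It was the 1 of 8 genes called between litters, against 140 of 10678 over the whole table (1.31%), of which 66 were lower (0.618%) and 74 higher (0.693%) in litter 2. At an unadjusted p under 0.05 stood Bhlhe22, Mef2c, Cux2 and Pou3f1 of the 8, against 1641 of all genes (15.4%). In the mutants alone the Bhlhe22 difference was -1.16 (edgeR adjusted p = 0.0441) and in the controls alone it was -1.0 (adjusted p = 0.272, with 2 embryos against 4). Leaving out each library in turn gave -1.22 to -0.97, all called, while leaving out mutants 1 and 4 together gave -1.06 with an adjusted p of 0.0563. The test of whether the litter difference itself differed between genotypes gave -0.19 (SE 0.357, 95% interval -0.95 to 0.58, edgeR adjusted p = 0.948). Litter is known here only as a label, and what else differed between the 2 litters is not given in the sources used here.

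**Figure D4:**
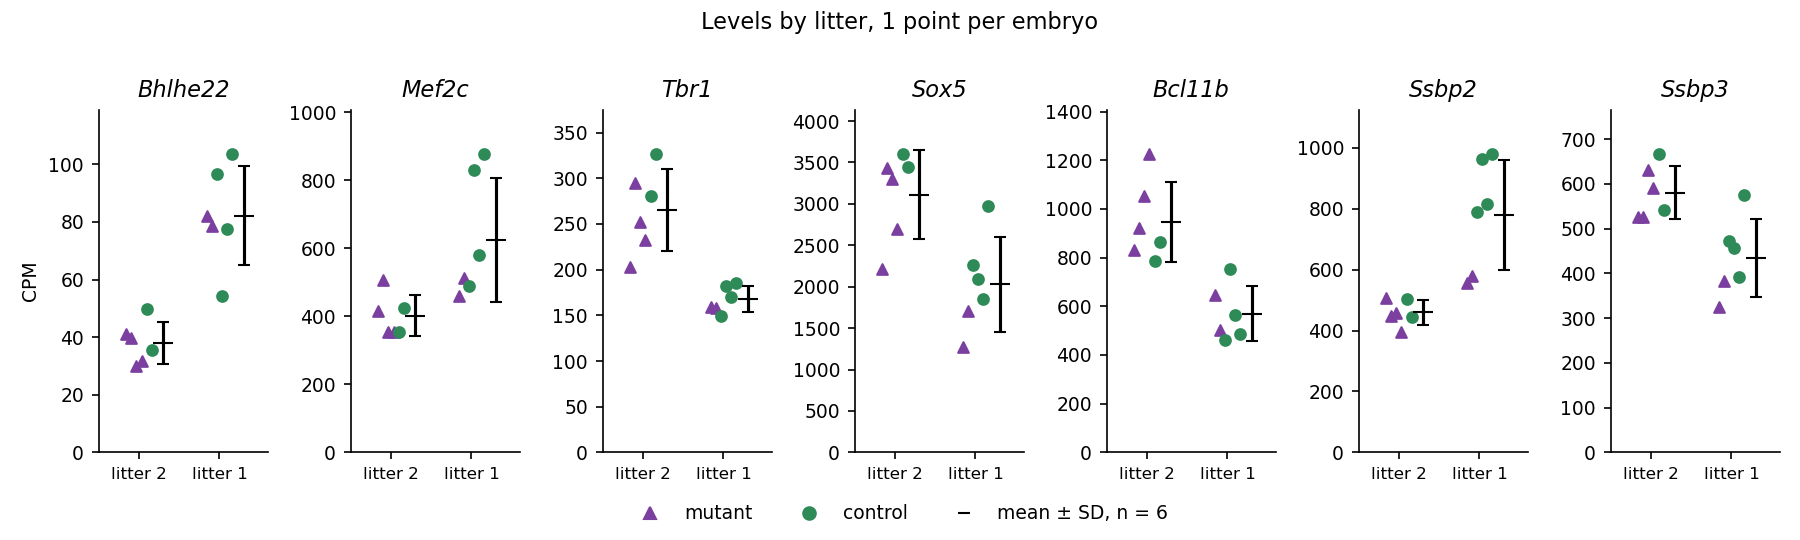
CPM by litter, litter 2 left and litter 1 right, for Bhlhe22 and Mef2c and for the other regulators and cofactors named in the text that were called between litters, with 1 point per embryo (triangles mutants, circles controls) and bars for mean ± SD. Bhlhe22 and Ssbp2 were lower and Tbr1, Sox5, Bcl11b and Ssbp3 higher in litter 2, and Mef2c was not called.

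Mef2c had the next smallest p between litters. It averaged 402 ± 60.3 CPM in litter 2 and 624 ± 182 CPM in litter 1 (SD, n = 6 each), and 5 of the 6 embryos of litter 2 lay below all of litter 1. The log2 fold change of -0.53 (SE 0.141, edgeR adjusted p = 0.0836) was not called, and DESeq2 called it with an adjusted p of 0.0325. Cux2 differed by 0.47 (SE 0.176, 95% interval 0.081 to 0.85, edgeR adjusted p = 0.231) and Pou3f1 by -0.66 (SE 0.262, 95% interval -1.22 to -0.096, adjusted p = 0.246). Pou3f2 differed by -0.29 (adjusted p = 0.505), Rorb by 0.35 (adjusted p = 0.613), Cux1 by -0.035 (adjusted p = 0.924) and Lhx2 by -0.0001 (adjusted p = 1.00), none of them called.

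Of 10 regulators of deep-layer neurons tested, 3 were higher and none lower in litter 2, against 0.693% higher and 0.618% lower of all genes. The list as a whole did not lean one way, with 6 values positive, 4 negative (Crym at -1.65 the lowest) and a median of 0.097. The 3 were Tbr1 (0.74, SE 0.0988, edgeR adjusted p = 0.00125), which sets corticothalamic identity, Sox5 (0.79, SE 0.143, adjusted p = 0.0123), which times deep-layer neuron types, and Bcl11b (0.68, SE 0.142, adjusted p = 0.0280), which acts in corticospinal neurons. Tbr1 stood between 202 and 326 CPM in litter 2, against 150 to 185 CPM in litter 1, with no overlap, as in 1.66% of all genes. Its call held with each library left out and Bcl11b's did not: without mutant 1, mutant 2, mutant 5, control 1, control 3, control 5 or control 6 its adjusted p lay between 0.0537 and 0.122, and that of Sox5 was 0.0585 without mutant 1 and 0.0530 without control 6. The summed level of 8 projection-neuron markers, a list that holds Tbr1 and Bcl11b, was 1784 ± 186 CPM in litter 2 and 1248 ± 91.1 CPM in litter 1 (SD, n = 6 each, exact two-sided permutation p = 0.00216, adjusted over 11 lists 0.0238). Most of that gap came from those genes, Bcl11b at 948 CPM in litter 2 and 569 CPM in litter 1 and Tbr1 at 265 CPM in litter 2 and 168 CPM in litter 1, and the fitted median of the list was 0.23. The p of that sum thus largely repeats the calls of Bcl11b and Tbr1. The markers of cortical hem and hippocampus summed to 1281 ± 304 CPM in litter 2 and 1919 ± 613 CPM in litter 1 (SD, n = 6 each, exact two-sided permutation p = 0.0368, adjusted over 11 lists 0.202). The part of either marker list in the Bhlhe22 difference was not tested. With the striatal level in the fit the Bhlhe22 difference was -1.07, as without it.

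No difference between the sexes was called among the 8, against 1 of 10678 genes (0.00937%), with 1 of the 8 at an unadjusted edgeR p under 0.05 against 742 of all genes (6.95%). That gene was Mef2c, at 629 ± 221 CPM in 5 males and 430 ± 61.6 CPM in 7 females (SD), with a log2 fold change of 0.40 (SE 0.152, 95% interval 0.076 to 0.72, edgeR adjusted p = 0.706). The 5 males were 1 mutant and 1 control of litter 2 and 3 controls of litter 1. Since the filter on low counts was set by genotype groups of 6 libraries, genes with counts in the 5 males alone could not be tested. For the interaction of litter and genotype none of the 8 was called, and neither was any of the 10678 genes (0%), with 776 (7.27%) at an unadjusted p under 0.05. The values of the 8 ran from -0.62 for Pou3f1 (SE 0.534, 95% interval -1.77 to 0.53) to 0.35 for Mef2c (SE 0.292, 95% interval -0.28 to 0.98).

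Genes that work with these factors were read from lists chosen from general knowledge. Of the family relatives 5 were tested and none was called between mutants and controls: Pou3f4 (0.84, SE 0.414, edgeR adjusted p = 0.603), a POU factor strong in the striatum, Lhx9 (0.92, SE 0.657, adjusted p = 0.793), the closest relative of Lhx2, Rora (0.15, SE 0.132, adjusted p = 0.826), Mef2a (0.015, SE 0.118, adjusted p = 1.00) and Mef2d (0.018, SE 0.109, adjusted p = 1.00). Pou3f4 was highest in mutant 6, at 44.6 CPM, the library that was also highest in striatal markers, and the part of striatal tissue in its difference was not tested. All 11 cofactors were tested and none was called, 9 of them negative with a median of -0.16. The smallest p were those of Tle1, a Groucho corepressor (0.34, SE 0.104, edgeR adjusted p = 0.242), and of Ssbp2 (-0.24, SE 0.127, adjusted p = 0.618) and Ssbp3 (-0.21, SE 0.131, adjusted p = 0.714), which stabilise the LDB proteins that bind Lhx2.

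Between litters 2 of the 11 cofactors were called, in opposite directions, against 1.31% of all genes. Ssbp2 averaged 459 ± 41.3 CPM in litter 2, against 780 ± 181 CPM in litter 1 (SD, n = 6 each), for a log2 fold change of -0.62 (SE 0.111, edgeR adjusted p = 0.0110), with all embryos of litter 2 below all of litter 1. Ssbp3 averaged 580 ± 59.3 CPM in litter 2, against 434 ± 87.0 CPM in litter 1 (SD, n = 6 each), for a log2 fold change of 0.51 (SE 0.114, edgeR adjusted p = 0.0319), and the litters overlapped in control 4. The Ssbp2 call was lost without control 5 (adjusted p = 0.0738) and without control 6 (adjusted p = 0.0711). The Ssbp3 call was lost without mutant 1, mutant 2, mutant 5, mutant 6, control 2, control 3 or control 5, with adjusted p between 0.0532 and 0.141.

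Of 5 genes reported in mice to be regulated by these factors, 3 were tested and none was called between mutants and controls. Cdh11, a cadherin that Bhlhe22 represses together with Prdm8, averaged 343 ± 39.8 CPM in mutants, against 272 ± 15.7 CPM in the controls (SD, n = 6 each), for a log2 fold change of 0.40 (SE 0.0995, edgeR adjusted p = 0.119). Fezf2, a regulator of subcerebral neurons controlled by Lhx2, averaged 32.8 ± 9.23 CPM in mutants, against 54.8 ± 24.9 CPM in the controls (SD, n = 6 each), for a log2 fold change of -1.08 (SE 0.410, edgeR adjusted p = 0.460). Sox11 differed by 0.064 (SE 0.0967, adjusted p = 0.933), and the Cux targets Xlr3b and Xlr4b did not pass the filter.

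Of 21 other genes of upper-layer and callosal neurons 17 were tested, and none was called between mutants and controls, with 8 negative, 9 positive and a median of 0.065. The smallest p were those of Nrp1, a semaphorin receptor (-0.91, SE 0.270, edgeR adjusted p = 0.295), Nectin3, a cell adhesion protein (-0.33, SE 0.111, adjusted p = 0.306), and Chn2, a regulator of Rac (0.29, SE 0.0993, adjusted p = 0.323). Nrp1 averaged 278 ± 83.7 CPM in mutants, against 513 ± 199.7 CPM in the controls (SD, n = 6 each), on a list where 9 of the 17 values were positive. Between litters none of the 17 was called either, and the smallest p were those of Nectin3 (-0.34, SE 0.0967, edgeR adjusted p = 0.0936), Dkk3 (-0.99, SE 0.286, adjusted p = 0.0963) and Rasgrf2 (-0.85, SE 0.305, adjusted p = 0.184). Calb1, Lamp5, Hspb3 and Nnmt did not pass the filter. Of the 10 deep-layer regulators 1 was called between mutants and controls, against 0.215% of all genes. It was Tle4, a corepressor of corticothalamic neurons, at 204 ± 20.9 CPM in mutants, against 424 ± 107 CPM in the controls (SD, n = 6 each), for a log2 fold change of -0.81 (SE 0.121, edgeR adjusted p = 0.00961). That call was lost without control 6 (adjusted p = 0.0592). The next smallest p were those of Zfpm2 (-1.16, SE 0.248, adjusted p = 0.115) and Nfib (-0.45, SE 0.145, adjusted p = 0.286), and the median of the 10 was -0.40.

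**Figure D5:**
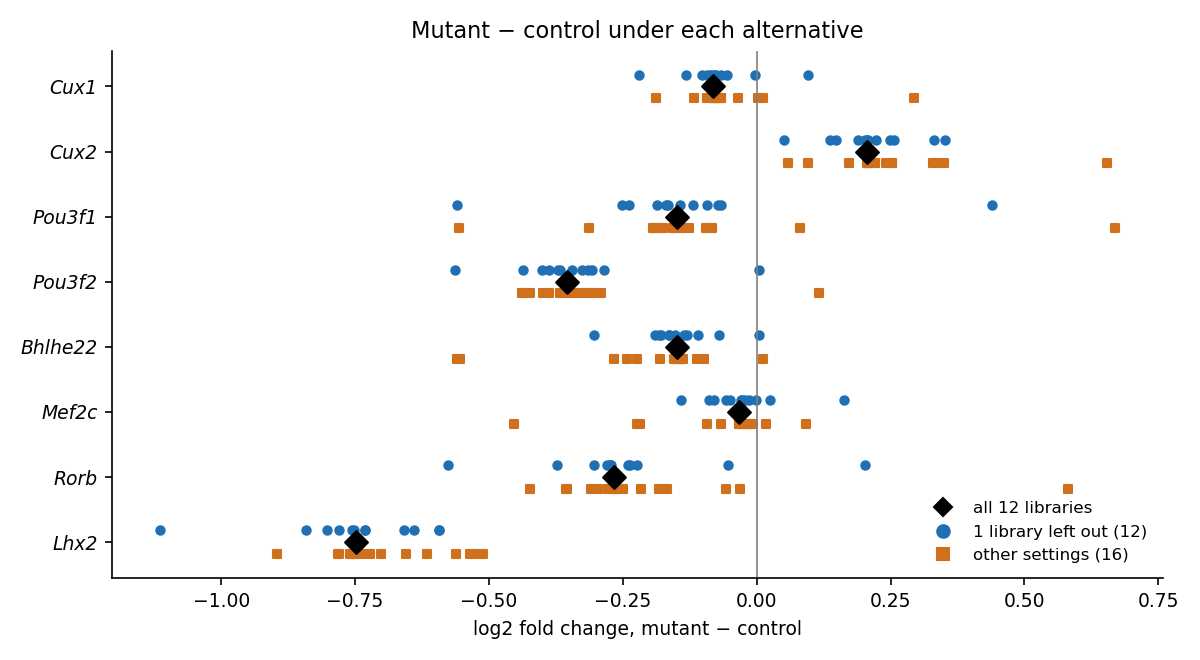
Log2 fold change of mutant minus control for the 8 measured genes with all 12 libraries (diamonds), with 1 library left out (circles, 12 per gene) and under 16 other settings (squares). Lhx2 stayed between -1.11 and -0.51 and Cux2 between 0.050 and 0.65, and the other 6 genes lay on both sides of 0.

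The 28 pairs of the 8 genes were correlated over the 12 libraries on the log2 scale, and no pair passed the correction. The closest pair was Pou3f1 and Pou3f2 (Pearson's r = 0.75, permutation p = 0.00555, adjusted 0.115, and Spearman's rho = 0.78, permutation p = 0.00397, adjusted 0.111). For these r was 0.88 within litter 2, 0.32 within litter 1 and 0.62 without the 2 libraries farthest from the median of Pou3f1. Cux1 and Pou3f2 followed (r = 0.72, permutation p = 0.00824, adjusted 0.115, and rho = 0.60, permutation p = 0.0424, adjusted 0.198), with r of 0.94 within litter 2, 0.68 within litter 1 and 0.41 without the 2 farthest libraries. Cux2 and Bhlhe22 had the most negative value (r = -0.63, permutation p = 0.0278, adjusted 0.153, and rho = -0.62, permutation p = 0.0344, adjusted 0.192). It was -0.47 within litter 2 and 0.092 within litter 1, so the negative relation did not hold within litter 1.

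For each gene the 3 genes with the most similar profile were found among 7058 genes with a mean of at least 20 CPM, by Pearson's r of log2(CPM + 1) over the 12 libraries. These values describe libraries that share depth, litter and tissue content, and carry no test. Pou3f2 was most like Pantr1 (r = 0.95), the noncoding RNA beside Pou3f3 on another chromosome, followed by Reep2 (0.89) and Nrip1 (0.87). Bhlhe22 was most like Tnc (0.94), which encodes the matrix protein tenascin-C, the channel gene Hcn3 (0.92) and the secreted semaphorin Sema3c (0.90). Mef2c was most like Atp8a1 (0.96), Med13 (0.93) and Ncam1 (0.92), and Lhx2 was most like Slc16a1 (0.94), Gm11266 (0.92) and Emx2os (0.91), the antisense RNA of the cortical patterning gene Emx2.

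Cux2 was most like Tnrc18 (0.92), Ryr1 (0.90) and the ligand gene Wnt7b (0.89), and Rorb was most like Pde4b (0.92), Ttc27 (0.88) and Araf (0.88). Pou3f1 was most like Selenok (0.88), Nedd8 (0.88) and Vps26b (0.87). Cux1, the gene that varied least, had the lowest values, with Tor1aip1 (0.84), Gpr19 (0.83) and Reep2 (0.81). Reep2 was the 1 gene among the 3 nearest of 2 of the factors, Cux1 and Pou3f2.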

How the data were processed

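Per the labels' protocols, RNA from micro-dissected cortex was treated with DNase, depleted of ribosomal RNA and made into ClickSeq libraries. The submitters' processing notes name STAR 2.5.2a, HTSeq 0.6.1p1, UMI-tools 0.5.3, edgeR 3.20.9, cutadapt 1.13 and bcl2fastq 2.17 and the build mm10. Not given in the sources used here are their order and roles, the annotation, the feature type and any use of strand, though counts of genes that lie within others show that introns were counted and strands kept apart. The deposited values are raw counts per Ensembl gene, 1 file per library, to which the authors applied no normalization. Entries that name no gene took 20.7 to 31.6% of a file and were left out.

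Symbols and positions came from GENCODE M21 (GRCm38): 47648 identifiers matched with their version, 3985 without it and 279 not at all. filterByExpr by genotype, with a minimum count of 10, left 10678 genes, fitted in edgeR 4.0.16 (R 4.3.3) with TMM, estimateDisp, glmQLFit (robust) and glmQLFTest, with litter, sex and genotype as terms and 8 residual degrees of freedom. P-values were adjusted by Benjamini-Hochberg over all genes tested. The SE is the log2 fold change divided by the square root of F. The code was tested on simulated data. Correlations used 100000 resamples, and exact permutation tests all 924 splits of 6 and 6 libraries. DESeq2 1.42.0, limma 3.58.1 (voom), other scalings, filters, terms and subsets and leaving out each library were tried as alternatives. No library was a copy of another (chi-square per degree of freedom 1.97 to 16.6 over all pairs). Replicate numbers follow accession order and only name embryos. p-values set a difference against the spread between these embryos. For the litter comparison they concern these 2 litters only, since the embryos of a litter are littermates. Intervals on single counts cover counting error only. The collapse of molecular tags was not visible in the counts.

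The 9 genes, the gene lists and the tests were chosen with earlier results of these data known, and 8 alternatives for the litter comparison were added after seeing the data. The text names all 9 genes, Arid1a, the tested family relatives, the called members and the 3 genes with the smallest p of every other list, and the 3 genes most like each factor. AC122898.1, Pantr1, Gm2164 and Sox2 were named after their values were seen. Python 3.11.15, pandas 2.3.3, scipy 1.17.1 and matplotlib 3.10.9 were used for tables and plots.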

Additional observations from a re-analysis of the deposited data

Results flagged for a closer look

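Of 40 sets of 6 libraries examined for a library far from the others (8 genes, AC122898.1 and 11 summed marker lists in each genotype), 1 was flagged, where chance flags about 1 in 20. The summed level of 16 interneuron markers in mutant 5 was 2040 CPM, against 3015 CPM in the next lowest mutant and 3186 CPM in the highest. The gap was 0.850 of the whole range of the mutants, above Dixon's critical value for that number of samples. Mutant 5 lay within the range of the controls. Controls 1, 4, 5 and 6 stood at 2098, 1824, 1835 and 2111 CPM, and controls 2 and 3 at 4055 and 4001 CPM. Mutant 5 was also the highest of the 12 libraries in Cux2, at 730 CPM. None of the 8 factors themselves had such a library in either genotype. Without mutant 5 the Cux2 difference between mutants and controls was 0.15.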

How the results depend on the processing

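No paired analysis was possible because the labels give mutants and controls no shared replicate numbers, and litter entered the fit as a term instead. For mutants and controls, 0 of the 8 genes were called in all 28 alternatives, while calls over all genes ran from 0 without mutants 1 and 4 to 261 with no filter on low counts (199 lower, 62 higher), against 23 as reported. Lhx2 stayed negative and Cux2 positive throughout. Signs turned for the other 6. Leaving out each library gave Cux1 -0.22 to 0.095, Pou3f1 -0.56 to 0.44, Pou3f2 -0.56 to 0.0049, Bhlhe22 -0.30 to 0.0049, Mef2c -0.14 to 0.16 and Rorb -0.58 to 0.20. In litter 1 alone, where control 1 alone informs genotype beside the sex term, Cux1 was 0.29, Pou3f1 0.67, Pou3f2 0.12 and Rorb 0.58. Mef2c was 0.017 with library totals and 0.093 in litter 2 alone, Pou3f1 was 0.081 with no sex term, Bhlhe22 was 0.011 with the striatal level as a covariate, and Cux1 was 0.0020 in females alone and 0.012 without mutants 1 and 4. The causes were not tested.

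Between litters, the number of the 8 genes called was 2 in DESeq2 (with Mef2c), 0 in the controls alone and 0 without mutants 1 and 4, against 1 as reported and in the other 17 alternatives. Bhlhe22 was called in 18 of 20. Lhx2 turned sign, at 0.0046 with library totals, 0.069 in controls alone and 0.0069 without mutants 1 and 4, and ran from -0.25 to 0.22 with 1 library left out. Cux1 was 0.073 in controls alone and ran from -0.13 to 0.027 with 1 library left out. Tbr1 kept its call in 19 of 20 alternatives, Ssbp2 in 17, Sox5 in 15, Bcl11b in 10 and Ssbp3 in 10, and Tle4 between mutants and controls in 25 of 28. None of the 8 genes was called for sex or the interaction with any library left out. Depth limits Pou3f1 most, with 9 to 91 counts a library, and Pou3f3 has no usable level in these counts.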
